A study of Mus musculus with 17 samples.

Results

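The respiratory chain genes of the expression table were the rows whose name begins with Nduf and a subunit letter and number, Uqcr, Cox4 to Cox8, Atp5, or mt- followed by Nd, Co, Cytb or Atp, together with Sdha, Sdhb, Sdhc and Sdhd. This rule, which used names and no measured value, gave 101 of 21931 genes. Of these, 88 lie in the nuclear genome (39 of complex I, 4 of complex II, 8 of complex III, 19 of complex IV and 18 of complex V) and 13 in the mitochondrial genome (7, 0, 1, 3 and 2, in the same order). Complexes were assigned by name, so that Ndufa4 and Ndufa4l2 stand with complex I and the supercomplex factor Cox7a2l with complex IV. A filter on low counts kept 82 nuclear and 10 mitochondrial genes for testing. It left out Cox8b, Cox8c, Cox7b2, Cox6b2, Ndufb11b, a duplicate entry of Atp5o, mt-Nd3, mt-Nd4l and mt-Atp8.

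RNA was sequenced from MC38 tumors, grown from a mouse colon cancer line injected under the skin on both sides of C57BL/6J mice aged 6 to 8 weeks. In the Cryo group (8 tumors) the tumor on the opposite side had been frozen on day 7 after implantation, in 2 cycles of 20 s by the sample labels (the study's text gives a longer freezing time, so the duration is unsettled), and the tumor that was not frozen was collected 5 days later. The Con group (9 tumors) was collected at the same time without freezing. The study's text gives these sizes the other way round, with 9 cryoablation and 8 control samples, so group assignment here rests on the labels. All mice carried the same cell line, and nothing in the labels tells the tumors apart beyond group and number.

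The respiratory chain moves electrons from NADH and succinate to oxygen through complexes I to IV of the inner mitochondrial membrane, and complex V uses the proton gradient so formed to make ATP. Mitochondrial DNA encodes a few core subunits of complexes I, III, IV and V, which are transcribed inside the organelle as long polycistronic RNAs. The remaining subunits, and all of complex II, are transcribed singly in the nucleus, where the factors NRF1, GABPA and YY1 are known to act on many of their promoters, and are imported as proteins. In bulk tumor RNA, fewer cells of a type and less RNA per cell cannot be told apart.

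The tumors held 13524899 to 17898672 counted reads. Cryo 2, Cryo 4 and Cryo 5 stood apart from the other 14 tumors in most of the values below, so results are given with and without them. These 3 tumors were picked from the data and are not a group of the study. Of 9 markers of intestinal epithelium, 6 passed the filter on low counts. Cdh1 was at 5.31 to 26.2 CPM (reads scaled to a common library size with TMM factors, as throughout), Lgals4 at 8.42 to 16.9 CPM and Epcam at 0.482 to 8.67 CPM in all tumors, and the keratin Krt19 reached 91.6 CPM. Cdx2 had 0 reads in every tumor, and Krt20 and Vil1 had at most 7 and 11 reads.

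Sequence bears on how well reads of these genes can be placed. Every 50-base piece of each gene's longest GENCODE M21 transcript (build GRCm38) was looked up in the transcripts of all other genes. For 39 of the 88 nuclear genes no piece occurred elsewhere, and only the pseudogene Cox5b-ps and the duplicate Atp5o shared over 50% of their pieces. Of the 13 mitochondrial genes, 7 shared over 50%, mainly with annotated pseudogenes in a stretch of chromosome 1 that carries a copy of mitochondrial DNA. The copy of mt-Co3, which encodes a subunit of complex IV, is Gm28437 (chr1:24613189-24613971, minus strand), and 0 of 783 aligned bases differ. The opening 60 bases of the gene, at chrMT:8607-8666, are shown because a read from either locus would carry them.
mt-Co3 and Gm28437: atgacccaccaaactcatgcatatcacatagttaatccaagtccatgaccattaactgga
The catalytic subunit gene mt-Co1 differs from its copy Gm29216 (chr1:24615706-24616197, minus strand) at 6 of 492 aligned bases, all of them within the 60 bases at chrMT:6381-6440, where capitals mark the differing bases.
mt-Co1: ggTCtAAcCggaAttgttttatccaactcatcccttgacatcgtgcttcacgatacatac
Gm29216: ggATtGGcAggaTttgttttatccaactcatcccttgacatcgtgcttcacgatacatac
Counted from the start of mt-Co1, the changes from gene to copy are T1056A, C1057T, A1059G, A1060G, C1062A and A1066T. A read of 50 bases from the aligned stretch beyond these changes matches both loci.

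Among the nuclear genes, 69 had a promoter in the RefSeq table for GRCm38.p6, taken as 250 bases before to 50 after the start. Both strands were searched for GCATGCGC (core of the NRF1 site), CCGGAAG (GABPA) and AAGATGGCG (YY1). The NRF1 letters occurred in 10 members (14.5%) against 3.05% of the 27025 genes with a promoter. The GABPA letters occurred in 17 (24.6% against 9.93%) and the YY1 letters in 7 (10.1% against 1.64%). At least 1 of the 3 was found in 28 members (40.6% against 13.6%). A match is a run of letters and not a measured binding site. The 3 promoters below, of genes described later, hold both NRF1 and GABPA letters (capitals), with the palindrome GCGCATGCGC counted as overlapping NRF1 matches on both strands. They are Atp5k (chr5:108434350-108434649, minus strand), Uqcr11 (chr10:80406772-80407071, minus strand) and Cox6a1 (chr5:115348909-115349208, minus strand), each read 5′ to 3′ on the gene's strand.
Atp5k: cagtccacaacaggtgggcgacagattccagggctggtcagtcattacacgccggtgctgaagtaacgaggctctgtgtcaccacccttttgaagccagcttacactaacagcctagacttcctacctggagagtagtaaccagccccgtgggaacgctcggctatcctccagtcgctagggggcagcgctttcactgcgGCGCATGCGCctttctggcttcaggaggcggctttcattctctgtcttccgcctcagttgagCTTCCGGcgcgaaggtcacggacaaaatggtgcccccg
Uqcr11: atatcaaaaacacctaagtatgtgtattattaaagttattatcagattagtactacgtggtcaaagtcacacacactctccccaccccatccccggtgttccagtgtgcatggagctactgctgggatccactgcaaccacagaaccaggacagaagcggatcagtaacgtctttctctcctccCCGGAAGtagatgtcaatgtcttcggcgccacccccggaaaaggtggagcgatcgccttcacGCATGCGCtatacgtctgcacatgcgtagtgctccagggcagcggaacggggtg
Cox6a1: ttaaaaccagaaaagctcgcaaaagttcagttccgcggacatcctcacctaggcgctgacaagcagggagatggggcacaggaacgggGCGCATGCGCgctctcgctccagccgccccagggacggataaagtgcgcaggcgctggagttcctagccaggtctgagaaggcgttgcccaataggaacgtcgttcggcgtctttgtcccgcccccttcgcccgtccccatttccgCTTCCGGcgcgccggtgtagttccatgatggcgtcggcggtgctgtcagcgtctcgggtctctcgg

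Levels were compared between genes per kilobase of listed length (FPKM, as deposited). In the Con tumors mt-Co1 stood highest at 4945 ± 650 FPKM (SD, n = 9), followed by mt-Nd1 at 1632 ± 114 and mt-Cytb, the cytochrome b of complex III, at 1416 ± 123. The complex I genes mt-Nd2 (761 ± 81.2) and mt-Nd4 (708 ± 63.5) came next and lay within 1 SD of each other, as did mt-Nd5 (518 ± 88.6) and mt-Nd6 (487 ± 92.5). The highest nuclear members were Cox6a1 (297 ± 101), Atp5a1 (285 ± 15.4), the alpha subunit of the ATP synthase, Cox8a (267 ± 53.8) and Atp5b (238 ± 24.7), its catalytic beta subunit. Cox6a1, Atp5a1 and Cox8a differed by less than the SD of Cox6a1. Over all tumors the 82 tested nuclear genes had mean levels from 0.772 FPKM (Ndufb2) through a median of 47.0 to 377 FPKM (Cox6a1). Ndufa2 (128), Sdhd (103) and Uqcr10 (112) were the highest of complexes I, II and III.

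The remaining mitochondrial genes were listed far lower, although all 6 lie between the highly counted mt-Co1 and mt-Nd4. mt-Co2 had 189 to 485 reads per tumor, mt-Co3 had 111 to 732, mt-Atp6 had 41 to 77, mt-Nd3 had 2 to 17, mt-Nd4l had 0 to 7 and mt-Atp8 had 0 or 1. For 5 of these 6 genes, 98.0% to 100% of the 50-base pieces occur in the chromosome 1 copies, and none of those pseudogenes was a row of the table. mt-Atp8 shared no piece with an annotated gene, but 43 of its 204 bases overlap mt-Atp6. Whether shared or overlapping sequence set these low counts was not tested. Levels and fold changes given below for mt-Co2, mt-Co3 and mt-Atp6 describe the reads counted for these rows, which may not measure expression of those genes.

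**Figure D1:**
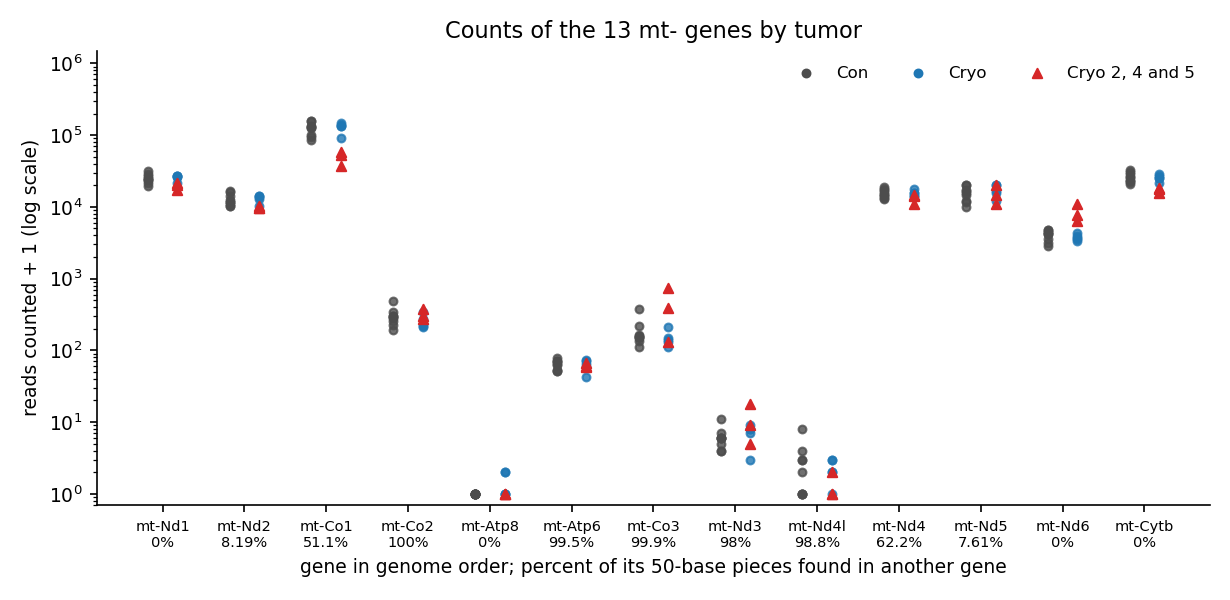
Reads counted plus 1 (log axis) for the 13 mitochondrial genes in genome order, with the percentage of each gene's 50-base pieces found in another gene under its name; grey, Con; blue, Cryo; red triangles, Cryo 2, 4 and 5. The 6 genes with the fewest reads include 5 with at least 98.0% shared pieces, and mt-Nd6 and mt-Co1 are the genes where the triangles lie outside all other tumors, above and below them.

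The comparison of the nuclear with the mitochondrial set asks whether the 2 genomes' contributions to the chain changed together in the tumors opposite a frozen one. The summed nuclear level ranged from 5898 through a median of 7150 to 11107 CPM in Con tumors, and from 5928 through 8244 to 17218 CPM in Cryo tumors (7803 ± 1879 and 10203 ± 4528, mean ± SD). Cryo 5 (17218), Cryo 4 (15015) and Cryo 2 (14204) lay above all Con tumors. The other 5 Cryo tumors, at 5928 to 8256 CPM, lay inside the Con range, whose highest values were Con 5 (11107) and Con 1 (10825). The summed mitochondrial level ranged from 11916 through 13280 to 14938 CPM in Con and from 9945 through 13125 to 15061 CPM in Cryo tumors (13350 ± 870 and 12864 ± 1599), so the groups overlapped, with Cryo 4 lowest and Cryo 7 highest.

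The log2 ratio of the nuclear to the mitochondrial sum was -0.81 ± 0.36 in Con and -0.44 ± 0.76 in Cryo tumors. It was above 0 in Cryo 2 (0.25), Cryo 4 (0.59) and Cryo 5 (0.40) and below 0 in the other 14 tumors. Without those 3 tumors the Cryo mean was -0.96 ± 0.32 (n = 5), below that of Con. These sums were not tested. mt-Co1 made the largest part of the mitochondrial sum, and without it the mitochondrial sum was 5984 ± 457 CPM in Con and 6493 ± 768 CPM in Cryo tumors, the opposite order of the full sum.

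**Figure D2:**
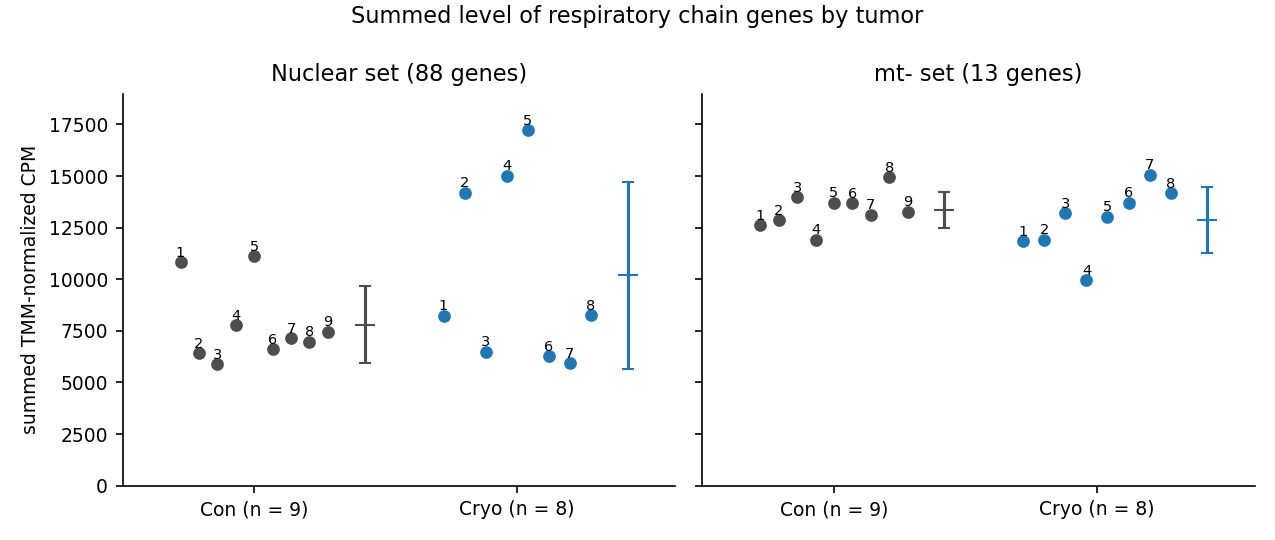
Summed CPM of the 88 nuclear and the 13 mitochondrial genes, a point for each tumor with its number, and mean ± SD beside each group. In the nuclear panel Cryo 2, 4 and 5 lie above all Con tumors, at 14204 to 17218 CPM, and in the mitochondrial panel Cryo 4 is lowest at 9945 CPM.

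In the edgeR comparison of Cryo with Con, 26 of the 82 tested nuclear genes had an unadjusted p under 0.05 and a higher level in Cryo tumors, against 3.74% of the 13005 genes tested. For lower levels the counts were 0 of 82, against 1.17% of all genes. No gene of the table had an adjusted p under 0.05, 0.0% of 13005, and the smallest was 0.728. With unadjusted p under 0.05, edgeR gave 639 genes, and DESeq2 and limma voom, which also gave 0 adjusted calls, gave 881 and 1312. Of the nuclear genes, DESeq2 called 41 higher and limma voom with sample quality weights called 0. The median log2 fold change was 0.58 over the nuclear set, 0.11 over the 10 mitochondrial genes and -0.01 over all genes. Of the nuclear genes, 76 had a log2 fold change above 0 and 6 below. A log2 fold change beyond 1 in either direction with p under 0.05, the threshold the study used, was passed upward by Ndufb9, Ndufa2, Ndufa11, Uqcr11 and Atp5k, 5 of 82, against 0.354% of all genes.

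These calls rested on the 3 tumors. All 26 called genes had Cryo 2, 4 and 5 as the 3 highest of the 17 tumors, against 74.1% of the 487 genes of the table called higher. So did 62 of the 82 tested members, against 12.8% of all genes. In only 1 of the 82, Uqcrc2, did another Cryo tumor exceed the highest Con tumor. The groups were separate in 0 of 82 members, and in 0.0% of all genes. By the two-sided exact permutation test of single genes, which enumerates 24310 splits and can give no p below 4.11e-05, 1 of the 82 had p under 0.05, Atp5o at p = 0.0261, against 2.97% of all genes. Without the 3 tumors the median over the nuclear set was -0.19, with 4 genes above 0 and 78 below, 0 called higher and 1, Cox6a2, lower, against 1.3% and 1.15% of all genes. The 4 were Atp5o, Ndufs1, Uqcrc2 and Sdha. Leaving out single tumors gave 2 nuclear genes called higher without Cryo 5, 3 without Cryo 4, 6 without Cryo 2 and 52 without Cryo 7. Of all genes, 1.35%, 1.47%, 1.27% and 8.08% were called higher in the same fits. The median SD of log2 CPM was 0.44 in Con tumors, 0.87 in Cryo tumors and 0.30 in the 5 other Cryo tumors.

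Complex I takes electrons from NADH. Of its 38 tested nuclear genes, 13 were called higher and 0 lower, against 3.74% and 1.17% of all genes, with a median of 0.58. All 13 were accessory subunits, which surround the catalytic core. Ndufb9 had 2.89, 6.14 and 10.4 CPM in Con tumors (lowest, median, highest) and 3.74, 7.44 and 37.4 CPM in Cryo tumors. Its values in Cryo 2, 4 and 5 were 23.2, 30.2 and 37.4 CPM and the other 5 Cryo tumors lay within the Con range (log2 fold change 1.28 ± 0.47 SE, edgeR unadjusted p = 0.0128, exact permutation p = 0.125, and -0.17 without the 3). Ndufa2, Ndufa11, Ndufa3 and Ndufa5 were also called (1.04, 1.03, 0.99 and 0.98), as were Ndufc2, Ndufc1 and Ndufb5 (0.83, 0.76 and 0.77). The 7 nuclear core genes, which carry the flavin, the iron-sulfur clusters and the quinone site, had log2 fold changes from -0.02 (Ndufs1) to 0.55 (Ndufs3), and 0 of 7 were called. Their median was 0.48, against 0.64 over 29 accessory genes (without Ndufa4 and Ndufa4l2), and their median listed length was 2178 bases, against 1217. The difference between core and accessory genes was not tested. The lowest value of the complex belonged to Ndufb2, with 3.37 to 5.68 CPM in Con and 1.48 to 5.06 CPM in Cryo tumors (-0.27 ± 0.19, exact permutation p = 0.0884).

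Complex II, succinate dehydrogenase, is entirely nuclear and also works in the tricarboxylic acid cycle. None of its 4 genes was called, against 3.74% of all genes called higher, and the median was 0.15. Sdhb, the iron-sulfur subunit, ranged from 103 to 243 CPM in Con and from 101 to 374 CPM in Cryo tumors (0.42 ± 0.26, exact permutation p = 0.267). The flavin subunit Sdha was at 153 to 180 CPM in Con and 132 to 175 CPM in Cryo tumors (-0.07 ± 0.07, exact permutation p = 0.207), with its 3 lowest values in Cryo 5, Cryo 4 and Cryo 2. The membrane anchor Sdhd had a log2 fold change of 0.17 ± 0.13. The 3 tumors that were highest for Sdhb were lowest for Sdha, whose levels spread less among tumors.

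Complex III passes electrons from ubiquinol to cytochrome c. Its small subunits Uqcr11, Uqcrb and Uqcr10 were the 3 of 8 nuclear genes called higher, against 3.74% of all genes. Uqcr11 had 13.8, 21.3 and 42.6 CPM in Con tumors and 17.5, 25.3 and 116 CPM in Cryo tumors, with Cryo 2, 4 and 5 at 86.0, 86.0 and 116 CPM and the others within the Con range (1.03 ± 0.41, edgeR p = 0.0199, exact permutation p = 0.119). Uqcrb (0.83 ± 0.33) and Uqcr10 (0.77 ± 0.36) followed. The core protein Uqcrc2 had 93.2, 106 and 115 CPM in Con and 39.2, 99.9 and 116 CPM in Cryo tumors (-0.20 ± 0.15, exact permutation p = 0.121). Its lowest values were in Cryo 4 (39.2), Cryo 5 (77.8) and Cryo 2 (79.5), which left the groups overlapping through the other 5 tumors.

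Complex IV, cytochrome c oxidase, reduces oxygen. Of its 15 tested nuclear genes 15 had a positive log2 fold change and 5 were called, with a median of 0.62. Among all 13005 genes tested, 6246 had a positive value and 3.74% were called higher. Cox6a1, its most abundant nuclear member, had 133, 176 and 361 CPM in Con and 122, 206 and 771 CPM in Cryo tumors (0.84 ± 0.40, edgeR p = 0.0493, exact permutation p = 0.249). The 3 high tumors had 602 to 771 CPM and the other Cryo tumors at most 210. Cox4i1 (0.77 ± 0.34), Cox6b1 (0.75 ± 0.34) and Cox7c (0.74 ± 0.31) were called as well, and Cox5a had the lowest value (0.22 ± 0.20).

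Complex IV subunits come in forms with different tissue or oxygen use. Cox7a1, a heart and muscle form, had 6 to 36 reads per tumor and 0.85 ± 0.41 (exact permutation p = 0.156), against 0.57 ± 0.30 (p = 0.203) for its ubiquitous partner Cox7a2 and 0.47 ± 0.26 for Cox7a2l. Cox6a2, the muscle form of Cox6a1, had 0.956, 2.69 and 4.40 CPM in Con and 0.740, 1.62 and 8.83 CPM in Cryo tumors (0.23 ± 0.50, exact permutation p = 0.848), and -1.12 without the 3 tumors. The skeletal muscle markers summed to up to 223 CPM in Con and up to 94.3 CPM in Cryo tumors, with medians of 18.4 and 25.3, so muscle marker RNA was unevenly spread among tumors, and its part in Cox6a2 was not tested. Cox4i2 and Ndufa4l2, the forms known to rise at low oxygen, had log2 fold changes of 0.74 ± 0.41 (exact permutation p = 0.176) and 0.54 ± 0.38 (p = 0.36), beside 0.49 ± 0.33 for Ndufa4. Cox8a was at 0.39 ± 0.25, Cox8b had at most 4 reads and Cox8c 0 reads in every tumor, and the testis form Cox6b2 had at most 19.

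Complex V is the ATP synthase. Of 17 tested nuclear genes 5 were called higher, against 3.74% of all genes, with a median of 0.60. Atp5k, a small membrane subunit, had 5.61, 9.77 and 18.3 CPM in Con and 5.36, 11.4 and 50.1 CPM in Cryo tumors (1.12 ± 0.44, edgeR p = 0.0194, exact permutation p = 0.145). Its values in Cryo 2, 4 and 5 were 40.4 to 50.1 CPM, and the other Cryo tumors lay between 5.36 and 12.7. The small subunits Atp5e, Atp5l and Atp5md were called too, with 0.76 for Atp5l and 0.72 for Atp5md. Atp5o had 0.811, 1.49 and 3.06 CPM in Con and 1.79, 2.09 and 7.50 CPM in Cryo tumors, with 8 of 8 Cryo tumors above the Con median and a positive value without the 3 tumors (0.93 ± 0.33, and 0.19 without them). It had only 16 to 96 reads per tumor, and 34.9% of its pieces were shared with another gene. Atp5a1 had the lowest value of the complex, with 711, 875 and 969 CPM in Con and 766, 797 and 908 CPM in Cryo tumors (-0.08 ± 0.08, exact permutation p = 0.188). The 3 genes of the c ring, which encode the same mature protein, had 0.66 ± 0.34 (Atp5g1), 0.51 ± 0.28 (Atp5g2) and 0.19 ± 0.16 (Atp5g3).

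**Figure D3:**
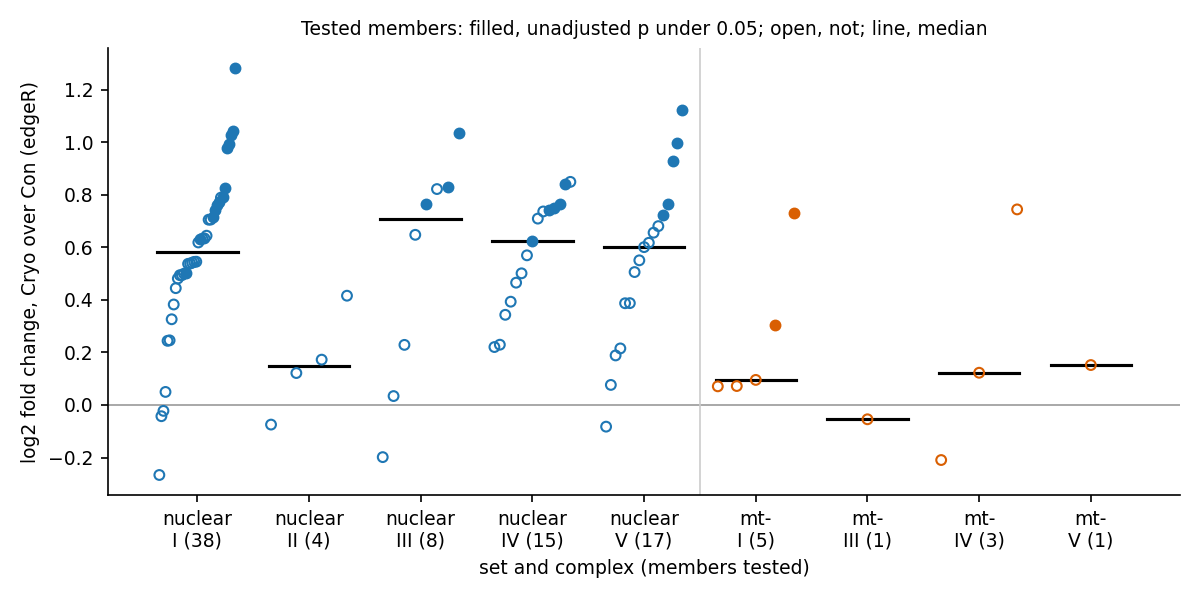
Log2 fold change of Cryo over Con (edgeR) for each tested member by set and complex; filled points had an unadjusted p under 0.05, open points did not, and lines are medians. Filled points are 26 of 82 in the nuclear set, all above 0, and 2 of 10 in the mitochondrial set.

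Among the nuclear members, fold changes were larger in the shorter genes. Median log2 fold changes over the nuclear set were 0.74 for 21 genes under 1000 bases, 0.62 for 32 of at least 1000 but under 2000 bases, 0.31 for 26 of at least 2000 but under 5000 bases and -0.02 for 3 longer ones. Over all tested genes in the same classes they were 0.50, 0.26, 0.03 and -0.07. The nuclear median was above that of all genes in each class, and without Cryo 2, 4 and 5 the values in the shortest class were -0.23 and -0.19. When each tumor's length trend was removed by offsets, the nuclear median was 0.27 and 17 genes were called higher, against 4.36% of all genes, of which 16 were among the 26. Lists of ribosomal protein genes were examined after the data were seen. The cytosolic list (52 genes) held names of the large subunit (Rpl) and left out the small subunit (Rps). Without the offsets its 48 tested genes had a median of 0.65, with 12 called higher. The 77 tested mitochondrial ribosomal protein genes had a median of 0.39, with 11 called higher. Of all genes, 3.74% were called higher. Without the 3 tumors the medians of the cytosolic large-subunit and mitochondrial lists were -0.20 and -0.15. In that fit 0 genes of either list were called higher.

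**Figure D4:**
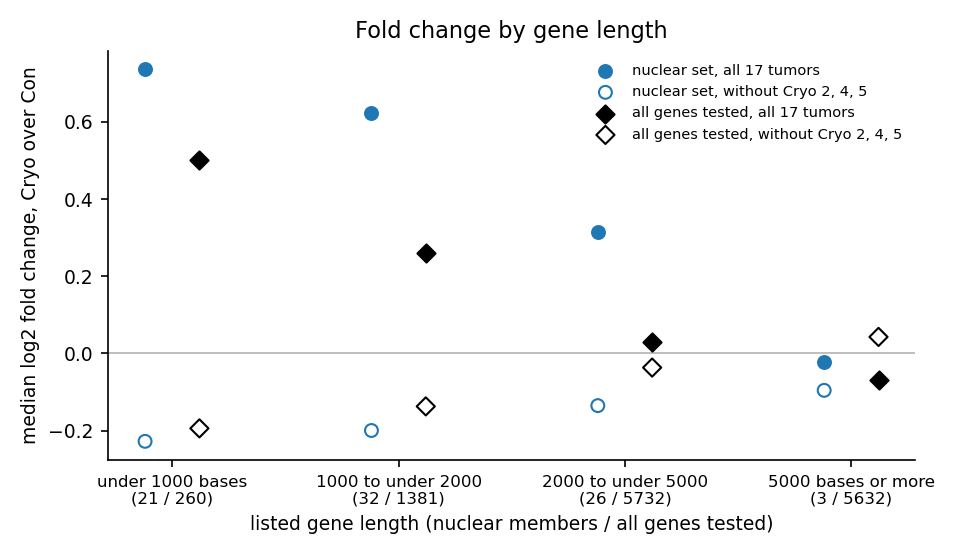
Median log2 fold change of Cryo over Con by listed gene length, for nuclear members (blue circles) and all tested genes (black diamonds), with all tumors (filled) and without Cryo 2, 4 and 5 (open); numbers of genes stand under each class. With all tumors the nuclear medians fall from 0.74 to -0.02 and those of all genes from 0.50 to -0.07.

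Tumor by tumor, the median deviation of the nuclear set from the Con mean was 1.23 in Cryo 2, 1.33 in Cryo 4 and 1.52 in Cryo 5 on the log2 scale. Among Con tumors it was highest in Con 5 (0.69) and Con 1 (0.63) and lowest in Con 3 (-0.41). The 234 other genes under 1000 bases had 1.20, 1.17 and 1.36 in Cryo 2, 4 and 5, and 0.60 and 0.52 in Con 5 and Con 1. In all 17 tumors the nuclear set lay within 0.164 of these short genes, although only 21 of its 82 tested genes are themselves under 1000 bases. Genes over 5000 bases moved the other way, with -0.29, -0.24 and -0.40 in the 3 tumors. The mitochondrial set had 0.19, 0.22 and 0.56 there. The part of length or RNA quality in the nuclear values was not tested beyond the offsets above.

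**Figure D5:**
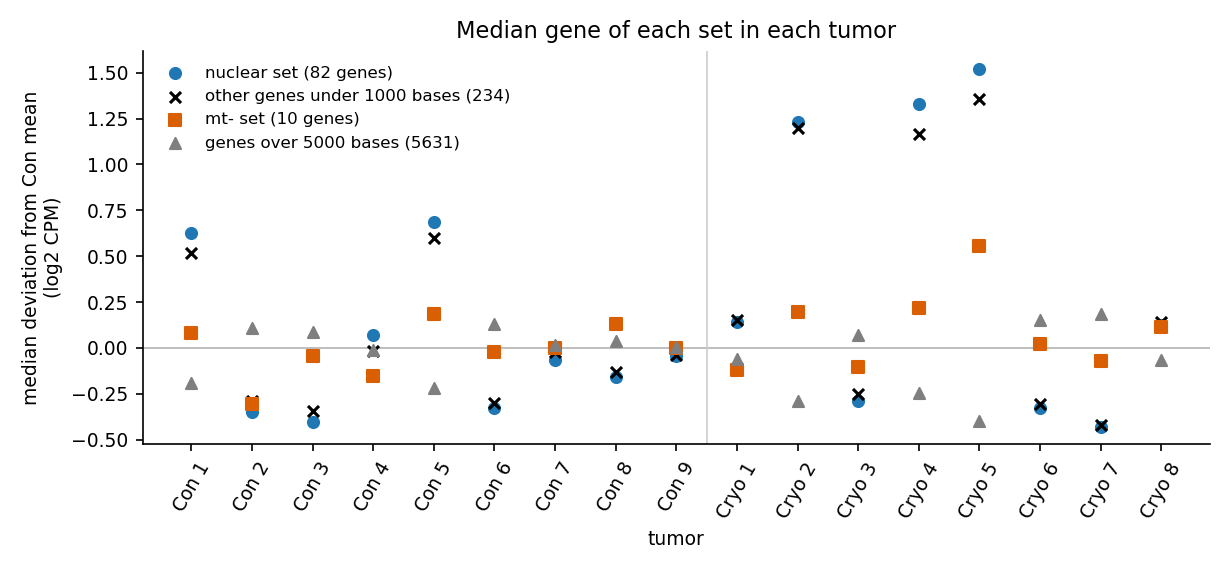
Median deviation from the Con mean (log2 CPM) in each tumor for the nuclear set (circles), the mitochondrial set (squares), other genes under 1000 bases (crosses) and genes over 5000 bases (triangles). Circles and crosses lie within 0.164 of each other in all 17 tumors, and the squares stay between -0.30 and 0.56.

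Of the 10 tested mitochondrial genes, 8 had a positive log2 fold change (5 of 7, with a median of 0.07, when mt-Co2, mt-Co3 and mt-Atp6 were left out), and mt-Nd6 and mt-Nd5 were called higher, 2 of 10 against 3.74% of all genes. With gene-length offsets the median of the set was -0.12 and 0 of 10 were called. mt-Nd6 encodes a membrane subunit of complex I and is the protein gene on the other strand from the rest. It had 166, 245 and 363 CPM in Con and 199, 264 and 868 CPM in Cryo tumors, with 549, 868 and 735 CPM in Cryo 2, 4 and 5 and at most 269 in the others (0.73 ± 0.30, edgeR p = 0.0255, exact permutation p = 0.135). Without the 3 tumors the value of mt-Nd6 was -0.14. mt-Nd5 had 639, 894 and 1079 CPM in Con and 827, 1049 and 1585 CPM in Cryo tumors (0.30 ± 0.14, edgeR p = 0.0399, exact permutation p = 0.0552). Cryo 4, Cryo 5, Cryo 7 and Cryo 6 lay above all Con tumors, and its value stayed positive without the 3 tumors (0.14). The 2 genes overlap by 14 bases on opposite strands, and where strand is not counted reads there cannot be told apart.

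mt-Co1 had 6324, 7419 and 8287 CPM in Con and 2912, 6810 and 8863 CPM in Cryo tumors (-0.21 ± 0.17, exact permutation p = 0.135). Cryo 4 (2912), Cryo 2 (4990) and Cryo 5 (5075) lay below all Con tumors, and without them the value was 0.04. The log2 ratio of mt-Nd6 to mt-Co1 reads was -4.93 ± 0.42 in Con tumors and -3.18, -1.75 and -2.79 in Cryo 2, 4 and 5, against -5.47 to -4.51 in the other Cryo tumors. The 2 genes lie in the same genome, and in these 3 tumors mt-Nd6 was high where mt-Co1 was low. mt-Co3 was also high in Cryo 4 (57.2 CPM) and Cryo 5 (37.8), with Con 4 next (24.6), and had 0.74 ± 0.44 (exact permutation p = 0.365). mt-Nd1, mt-Nd2, mt-Nd4, mt-Co2 and mt-Atp6 had log2 fold changes between 0.07 and 0.15, and mt-Cytb had -0.05 ± 0.09.

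Other genes of the pathway were taken from lists fixed with earlier results known. Among 21 further subunits and electron carriers tested, 2 were called higher and 0 lower (median 0.10). These were Atpif1, the inhibitor of ATP synthase (0.92 ± 0.33), and Etfb (1.01 ± 0.44), which feeds electrons from fatty acid oxidation, and cytochrome c, Cycs, was at 0.17 ± 0.15. Without Cryo 2, 4 and 5, Atpif1 was at -0.01 and Etfb at 0.28, and 0 genes of this list were called. Of 46 assembly factors 6 were called higher and 0 lower (median 0.15), namely Fmc1, Pet100, Uqcc2, Uqcc3, Ndufaf8 and Cmc1 (0.60 to 1.02, all negative without the 3 tumors). The shares called higher in these lists are to be read against 3.74% of all genes.

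No gene was called among 27 genes of mitochondrial DNA maintenance and transcription (median 0.02), 10 nuclear regulators (median -0.05) and 18 enzymes of the tricarboxylic acid cycle (median 0.01). Of all genes, 3.74% were called higher and 1.17% lower. The mitochondrial transcription genes Tfam, Polrmt and Tfb2m had 0.15 ± 0.11, 0.08 ± 0.11 and -0.10 ± 0.10. Nrf1, Gabpa and Yy1, which encode the factors whose letters were searched in the promoters, had 0.13 ± 0.09, -0.17 ± 0.18 and -0.03 ± 0.08. Ppargc1a, a coactivator of mitochondrial genes in muscle and brown fat, had at most 2 reads, and Ppargc1b was at 0.02 ± 0.21. Cs, citrate synthase, was at -0.09 ± 0.08. The summed level of the maintenance genes was 930 to 1030 CPM in Con and 958 to 1026 CPM in Cryo tumors.

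Markers of other cells were summed for the same tumors. Erythroid markers (9 genes, led by Hbb-bs and Hba-a1) summed to 91.7 to 176 CPM in Cryo 2, 4 and 5, 25.5 to 55.5 in the other Cryo tumors and 6.34 to 74.8 in Con tumors, and 4 of the 4 tested were called higher. The erythroid membrane genes Slc4a1 and Epb42 had at most 2 reads. Epithelial markers (9 genes, led by Krt19, Krt8 and Krt18) summed to 150 to 229 CPM in the 3 tumors, 20.5 to 71.9 in the other Cryo tumors and 25.9 to 107 in Con tumors, with 0 of 6 called. Of these 6, 5 had a log2 fold change above 0, and Cdh1 went the other way (-0.35 ± 0.27, and -0.38 without the 3 tumors). Epidermal markers summed to 408 to 664 CPM in the 3 tumors, 205 to 266 in the other Cryo tumors and 182 to 444 in Con tumors. Flg had 0 reads, and 1 of 3 tested, Krt10, was called higher. Krt14 made most of this sum, at 180 to 439 CPM in Con and 202 to 652 CPM in Cryo tumors (0.18 ± 0.25, and -0.37 without the 3 tumors). Adipocyte markers summed to 180 to 239 CPM in the 3 tumors, 44.2 to 236 in the other Cryo tumors and 38.9 to 140 in Con tumors, and 3 of 7 were called higher. Leukocyte, neutrophil, endothelial and proliferation sums in the 3 tumors lay inside the Con range, with 1 of 11, 2 of 6, 0 of 8 and 0 of 10 genes called. The leukocyte call was lower in Cryo tumors (Adgre1, a macrophage marker, -0.69 ± 0.29, and -0.64 without the 3). The neutrophil calls were higher, S100a8 at 1.34 ± 0.53 and S100a9 at 1.61 ± 0.65, with 0.99 and 1.40 without the 3 tumors, where 0 of the list were called. Mmp9 made most of the neutrophil sum, at 30.2 to 92.8 CPM. The fibroblast sum was 5050 CPM in Cryo 4, 7873 in Cryo 2 and 8238 in Cryo 5, with 0 of 9 genes called. It was 8059 to 10022 CPM in the other Cryo tumors and 7431 to 13341 CPM in Con tumors, so only Cryo 4 lay below the Con range. Counts called in these marker lists are to be read against 3.74% of all genes called higher and 1.17% lower. The part of these cells in the levels of respiratory chain genes was not tested.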

How the data were processed

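RNA sequencing of 9 Con and 8 Cryo tumors was analysed, with groups from the deposited labels (the study's text gives 8 control and 9 cryoablation samples). The authors deposited a count of reads per gene and tumor, not normalized, and FPKM, which equalled the count divided by listed length and total. The labels name an RNeasy kit and a SMARTER mRNA kit. The aligner, counting program and strandedness are not given in the sources used here. The labels name GRCm38, but listed positions of nuclear genes differ from GENCODE M21 for that build, so none is printed.

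Counts were tested with edgeR 4.0.16 in R 4.3.3 (TMM, filterByExpr by group, quasi-likelihood F test, Benjamini-Hochberg over 13005 genes), and single members by a two-sided exact permutation test of log2 CPM (prior count 2). Called means an unadjusted p under 0.05. No p was computed for the sets. Whether tumors came from separate mice is not stated for each, so p-values measure the spread between these samples. Total counts were 13524899 to 17898672, and 3 reads corresponded to 0.168 to 0.222 CPM of the total.

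The members, lists and tumors left out were chosen with earlier results of these data known. The genes named are every mt- gene, the highest and lowest fold change and the highest FPKM of each complex, isoform groups, and the 20 members with the smallest p. Other genes named were seen first. Alternatives were DESeq2 1.42.0, limma 3.58.1 voom, other scalings and filters, length offsets, a replicate block and leaving out tumors. Scripts were tested on simulated counts.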

Additional observations from a re-analysis of the deposited data

Results flagged for a closer look

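Among 102 sets of values (48 named genes and 3 summed measures in each group), 4 had a tumor far from the others of its group (Dixon's test at the 95% level), where chance flags about 1 in 20. In Con tumors these were mt-Nd5 in Con 4, lowest at 639 CPM, and mt-Cytb in Con 2, lowest at 1287 CPM. In Cryo tumors they were Ndufb2, lowest at 1.48 CPM, and Uqcrc2, lowest at 39.2 CPM, both in Cryo 4. Cryo 4 also had the lowest mt-Co1 level and the highest mt-Nd6 level of all tumors.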

How the results depend on the processing

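Leaving out Cryo 2, 4 and 5 together, which was planned with earlier results of these tumors known, changed the direction of most values. The median log2 fold change became -0.19 for the nuclear and -0.0505 for the mitochondrial set, the log2 difference of the summed levels (Cryo minus Con) went from 0.30 to -0.13 for the nuclear set, from -0.0611 to 0.0249 for the mitochondrial set and from 0.36 to -0.15 for their ratio, and the counts became 0 nuclear genes higher, 1 lower, 0 mitochondrial genes and 325 of all genes. Of 48 named genes, 41 changed sign, with log2 fold changes of Cox6a2 -1.12, Ndufa4l2 -0.39, Ndufa4 -0.39, Ndufa11 -0.37, Cox6a1 -0.37, mt-Co3 -0.35, Ndufa2 -0.29, Atp5e -0.29, mt-Co2 -0.26, Cox5a -0.25, Uqcr10 -0.25, Cox6b1 -0.25, Atp5g1 -0.24, Atp5l -0.24, Ndufa5 -0.24, Cox4i1 -0.23, Cox8a -0.23, Atp5k -0.22, Ndufc2 -0.21, Atp5g2 -0.21, Ndufc1 -0.20, Sdhb -0.20, Ndufb5 -0.20, Uqcr11 -0.19, Cox7a2 -0.18, Cox7a2l -0.17, Ndufb9 -0.17, Cox4i2 -0.15, Uqcrb -0.14, Atp5g3 -0.14, Atp5md -0.14, mt-Nd6 -0.14, Ndufa3 -0.13, Cox7c -0.11, Cox7a1 -0.10, Sdhd -0.091, mt-Atp6 -0.0719, mt-Nd4 -0.0405, Sdha 0.0139, Uqcrc2 0.0248, mt-Co1 0.0376. With gene-length offsets the mitochondrial median was -0.12, 17 nuclear and 0 mitochondrial genes were called, 39 genes passed the study's threshold, and 8 named genes changed sign, namely Cox6a2 -0.39, mt-Co2 -0.24, mt-Atp6 -0.15, mt-Nd1 -0.13, mt-Nd2 -0.11, mt-Nd4 -0.0796, Cox8a -0.0696, Sdhd -0.0492. With limma voom and sample quality weights 0 nuclear, 0 mitochondrial and 1312 of all genes were called, and 7 changed sign, namely Cox6a2 -0.64, mt-Co2 -0.11, Cox5a -0.0504, mt-Atp6 -0.0248, mt-Nd2 -0.0141, Uqcrc2 0.0117, Atp5a1 0.0255. The mitochondrial sum also turned higher in Cryo as a mean of log2 CPM (0.13) or without mt-Co1 (0.11, added after the data were seen). DESeq2 called 41 nuclear genes, and the 35 tested nuclear genes with no shared piece included 7 of the called ones. Without a filter on low counts 992 genes had p under 0.05 and 432 passed the study's threshold, against 639 and 64. The labels do not say whether replicate numbers pair the tumors. Correlations of same-numbered deviations ran from -0.51 to 0.64, and 2 of 8 tumors best matched their own number. Such correlations cannot show whether same-numbered tumors were handled together. With the replicate block on replicates 1 to 8, 2 nuclear genes, 0 mitochondrial genes and 33 past the study's threshold were called, and without the block on the same tumors 11 and 1 (nuclear, mitochondrial).

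Leaving out 1 tumor at a time gave 2 to 52 nuclear genes called higher (median log2 fold change 0.37 to 0.71), 0 called lower, 0 to 2 mitochondrial genes (median 0.05 to 0.15), 252 to 1388 of all genes, 34 to 165 past the study's threshold and 0 with adjusted p under 0.05. The nuclear count moved by over 1.5 times without any tumor other than Cryo 1 and Cryo 8 (33 each). It was 47 without Con 1 or Con 5, 51 without Cryo 3 or Cryo 6, 9 without Con 2 or Con 6, 10 without Con 3 or Con 8, 15 without Con 4, 12 without Con 7 and 11 without Con 9. The log2 differences of the sums ranged from 0.17 to 0.39 (nuclear), -0.10 to -0.01 (mitochondrial) and 0.21 to 0.49 (ratio). Among single genes, only Cox6a2 changed sign, at -0.26 without Cryo 4 (highest 0.38, without Cryo 3). Upper-quartile normalization, library sizes without mitochondrial genes, and a mean of at least 10 counts kept every count of members within 1.5 times. The cause of these changes was not tested. Reads of mt-Nd3, mt-Nd4l, mt-Atp8, Cox8b and Cox6b2 were too few to test at these totals, and why they were few was not tested. Without mt-Co2, mt-Co3 and mt-Atp6 (added after the data were seen) the mitochondrial median was 0.07.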
